A study of Rattus norvegicus with 25 samples.

Results

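The cytochrome P450 (Cyp) and flavin-containing monooxygenase (Fmo) genes of rat hepatoma cells were examined in 7 stable McArdle-RH7777 cell lines. Members were all probe sets whose only gene symbol began with Cyp or Fmo followed by a digit, without Cyp51, an enzyme of cholesterol synthesis. The rule used gene names and no measured value. It gave 71 of the 31042 probe sets tested, of which 64 belonged to 57 Cyp genes and 7 to 4 Fmo genes, and 8 of the 61 genes (of 14217 genes with a probe set of their own) had more than 1 probe set.

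McArdle-RH7777 cells derive from a rat liver tumour and secrete lipoproteins with apoB, and their RNA was hybridized to 25 Affymetrix rat genome arrays. The 2 control lines carried no Sar1 construct (2 and 3 arrays), 1 line overexpressed human Sar1A (4 arrays), 2 lines overexpressed human Sar1B, and 2 lines expressed Sar1B:H79G, a constitutively active mutant that cannot complete GTP hydrolysis (4 arrays per line). Sar1 is the GTPase that starts the COPII coat at the endoplasmic reticulum, where vesicles bound for the Golgi form. The constructs were FLAG-tagged and tetracycline-regulated, each line was selected with blasticidin and zeocin, and all lines, the controls included, were given 1 µg/ml tetracycline for 24 h before harvest. Each line is 1 clone, arrays of a line were technical replicates, and the line was therefore the replicate throughout. A value below is the log2 signal of a line, averaged over its arrays, and a probe set was called when its adjusted p from limma was below 0.05.

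P450 enzymes are heme proteins of the endoplasmic reticulum and of mitochondria that insert an oxygen atom into drugs, steroids, fatty acids, bile acid precursors and vitamins, with electrons from P450 reductase or ferredoxin. Families 1 to 3 clear most foreign compounds in liver, family 4 hydroxylates fatty acids and eicosanoids, and the higher families act on sterols, steroid hormones, retinoids and vitamin D. Fmo enzymes use a flavin in place of heme and oxidise nitrogen and sulfur atoms. Hepatocytes hold more P450 than other cells do, and hepatoma lines usually retain part of this repertoire.

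The labelled cell type was checked first. Of 10 hepatocyte markers measured, 9 lay above the array median on all 25 arrays, and none of the fibroblast, macrophage or endothelial markers (5, 4 and 3 measured) did so, although Epcam, listed for bile duct cells, did. The mean of the hepatocyte markers was 11.81 and 11.92 in the Sar1B:H79G lines and ranged from 12.08 to 12.44 in the other lines. Apob and Hnf4a were below every other line in both of them, with 10.07 and 10.75 beside 11.50 or more for Apob, whereas Alb, at 10.96 and 10.99, lay within the range of the other lines. The rat Sar1a probe set read 11.47 and 11.31 in the control lines, 13.10 in Sar1A, 12.05 and 11.46 in Sar1B, and 12.75 and 13.01 in Sar1B:H79G, and the rat Sar1b probe set 11.19 to 11.52 in all lines. The Sar1b probe set showed no rise in the lines with human Sar1B, with a group mean of 11.36 beside 11.45 in control. Whether the Sar1a probe set reads human Sar1A is not known, so that neither was used to check a label. By the array names, all control arrays came from one array series and all Sar1 arrays from another. The mean 5′ minus 3′ signal of the poly-A spike-ins was -1.71 in control against -0.79, -0.72 and -0.70 in Sar1A, Sar1B and Sar1B:H79G, and that of β-actin -0.88 against -0.61, -0.50 and -0.67. In every comparison with control, the construct and the array series cannot be told apart, whereas comparisons among the Sar1 lines lie within 1 series.

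Most members gave low signals. Of the 71 probe sets, 34 lay above the array median on no array, 21 on some and 16 on all 25 arrays. Signals of different probe sets are not comparable as amounts of transcript, and no detection calls were used here, so that a probe set below the median is not shown to be unexpressed. The 16 probe sets belonged to 15 genes, namely Fmo1, Cyp1a1, Cyp2c23, Cyp2d4 (both probe sets), Cyp2e1, Cyp4a3, Cyp4f1, Cyp4f6, Cyp4v3, Cyp20a1, Cyp26a1, Cyp26b1, Cyp27a1, Cyp27b1 and Cyp46a1. Cyp4v3 and Cyp26b1 each had a further probe set that stayed below the median on all arrays. On no array above the median were all 3 probe sets of Cyp2a, all 4 of Cyp3a, and those of Cyp2t1, Cyp7b1, Cyp11b1 and Cyp39a1.

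The share of members above the array median was 38.0% and 41.3% in the control lines, 30.3% in Sar1A, 34.2% and 32.0% in Sar1B, and 28.9% and 29.2% in Sar1B:H79G. Over all probe sets with 1 gene symbol it lay between 58.7% and 59.4% in every line. Both control lines stood above the 5 Sar1 lines and the Sar1B:H79G lines stood lowest, while single arrays spanned 25.4% to 42.3%. By role, family 4 went from 54.2% in control to between 33.3% and 37.5% in the Sar1 groups. Families 1 to 3 went from 33.3% in control to 25.7% in Sar1A, 27.6% in Sar1B and 22.1% in Sar1B:H79G. Of the 7 Fmo probe sets, 31.0% lay above the median in control, 21.4% in Sar1A, 25% in Sar1B and 14.3% in Sar1B:H79G, where Fmo1 alone remained. The vitamin D and retinoid enzymes stayed at 75% in all lines, which is 3 of 4 probe sets. The family 4 shift came from Cyp4a1, Cyp4a8 and Cyp4b1, whose line means lay between 7.74 and 8.62, near the array median.

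**Figure D1:**
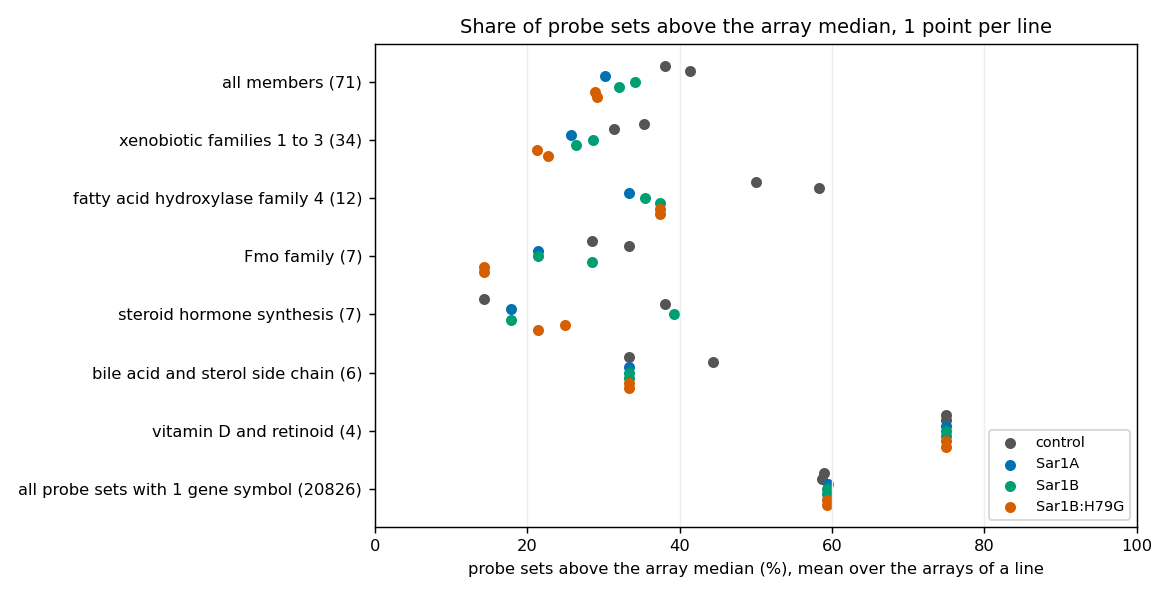
Share of probe sets above the array median (x axis, percent, mean over the arrays of a line) for all members, for 6 roles and for all probe sets with 1 gene symbol (y axis, number of probe sets in brackets). Each point is 1 cell line; the control lines sit at 38.0% and 41.3% for all members, to the right of the 5 Sar1 lines, whereas all lines coincide near 59% for all probe sets.

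Against Sar1B, the comparison that sets the GTP-restricted mutant beside its native form within 1 array series, 6 of the 71 members were called lower in Sar1B:H79G and none higher, where 8.63% of all probe sets were called, 3.34% higher and 5.29% lower. The 6 were Fmo1, Cyp26a1, Cyp27a1, Cyp2c6v1, Cyp4f1 and Cyp3a23-3a1, each a different enzyme with its own substrates. The share of members called was 8.45%, close to that of all probe sets. The median log2 difference over the members was -0.02, beside 0.01 over all probe sets. At an unadjusted p under 0.05 there were 11 lower and 1 higher. The share of all probe sets at this unadjusted threshold was not counted, here or in the later comparisons. Against Sar1A, also within the series, Fmo1, Cyp26a1, Cyp27a1 and Cyp2c6v1 were called lower and none higher, where 2.96% of all probe sets were called, 1.33% higher and 1.63% lower, with a median of 0.02 over the members and 0.01 over all probe sets. These comparisons share the Sar1B:H79G lines, and those lines are also in the comparison with control. The paper reports more recombinant Sar1 in the Sar1A lines than in the Sar1B and Sar1B:H79G lines, by a larger factor over Sar1B. The Sar1 groups therefore differ in the amount of recombinant protein as well as in its form.

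Fmo1, the main flavin monooxygenase of adult rat liver and kidney, gave 12.92 and 12.94 in the control lines, 12.84 in Sar1A, 12.86 and 12.67 in Sar1B, and 10.63 and 10.61 in Sar1B:H79G. The 8 Sar1B:H79G arrays ran from 10.53 through a median of 10.60 to 10.81, and the lowest array of any other line was at 12.60. No array of the mutant lines overlapped with those of the other groups. The log2 difference was -2.14 against Sar1B (standard error 0.08, a 4.42-fold lower signal, adjusted p = 0.0015) and -2.22 against Sar1A (standard error 0.10, adjusted p = 0.0042). Against control it was -2.31 (standard error 0.08, adjusted p = 7.8e-04). Native Sar1A and Sar1B lay at -0.09 and -0.17 from control, and with 95% intervals of -0.33 to 0.14 and -0.36 to 0.03 neither was called.

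Cyp26a1 hydroxylates all-trans retinoic acid and so starts its breakdown, and its gene is a classical target of the retinoic acid receptors. It gave 9.92 and 9.81 in the control lines, 10.09 in Sar1A, 10.03 and 10.13 in Sar1B, and 8.32 and 8.26 in Sar1B:H79G. The mutant lines stood apart without overlap, with arrays between 8.19 and 8.48 beside a lowest array of 9.78 elsewhere. Its log2 difference was -1.79 against Sar1B (standard error 0.08, a 3.46-fold lower signal, adjusted p = 0.0015), -1.80 against Sar1A (adjusted p = 0.0042) and -1.58 against control (adjusted p = 9.0e-04). The related Cyp26b1 did not share this, with -0.06 and 0.02 against Sar1B for its 2 probe sets.

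The promoters of Cyp26a1, Fmo1 and Cyp3a23-3a1 are shown because their windows held motifs of regulators that were also measured or, for Cyp26a1, of the retinoic acid receptors. Windows run from 250 bases before to 50 bases after the transcript start in RefSeq on build GRCr8, read 5′ to 3′ on the strand of the gene, and 48 of the 61 member genes had one, Cyp2c6v1 not among them. In the Cyp26a1 window (chr1:244883572-244883871, plus strand) the capitals mark 2 matches. The first is a direct repeat of AGTTCA spaced by 5 bases, the form of retinoic acid response element known from Cyp26a1 genes, which begins at base -92 and is read on the opposite strand. The second is TATAAA at base -31. In the Fmo1 window (chr13:77747617-77747916, minus strand) the capitals mark TTGCNNAA, searched as a loose C/EBP motif and not palindromic, at base 16 past the start. In the Cyp3a23-3a1 window (chr12:14398754-14399053, minus strand) they mark the HNF4 core CAAAGTCCA at base -110.
Cyp26a1: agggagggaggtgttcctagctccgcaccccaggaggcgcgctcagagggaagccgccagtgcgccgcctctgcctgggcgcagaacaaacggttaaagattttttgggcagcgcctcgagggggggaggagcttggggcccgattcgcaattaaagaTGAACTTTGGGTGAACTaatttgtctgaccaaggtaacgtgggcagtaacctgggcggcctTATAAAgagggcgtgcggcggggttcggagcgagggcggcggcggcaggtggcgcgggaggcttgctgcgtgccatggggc
Fmo1: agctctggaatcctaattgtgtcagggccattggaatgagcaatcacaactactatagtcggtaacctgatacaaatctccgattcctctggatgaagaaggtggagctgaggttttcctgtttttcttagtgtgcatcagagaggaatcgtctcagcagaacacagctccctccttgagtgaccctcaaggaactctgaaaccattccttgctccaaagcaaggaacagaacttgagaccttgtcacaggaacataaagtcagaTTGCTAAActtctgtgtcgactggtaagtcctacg
Cyp3a23-3a1: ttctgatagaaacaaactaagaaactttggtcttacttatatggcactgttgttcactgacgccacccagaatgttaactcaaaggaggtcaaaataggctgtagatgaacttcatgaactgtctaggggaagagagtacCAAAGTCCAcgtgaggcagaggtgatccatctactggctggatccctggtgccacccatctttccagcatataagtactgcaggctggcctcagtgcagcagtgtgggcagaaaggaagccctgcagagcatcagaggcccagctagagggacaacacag
Both strands were searched. The retinoic acid element occurred in 3 of 33469 promoters of the same length (0.00896%), and Cyp26a1 was the single member. Its letters were searched as the form known from Cyp26a1 genes, so this count is no separate evidence for that gene. The HNF4 core occurred in 0.391% of all promoters and in 2 of 48 members, Cyp3a23-3a1 and Cyp3a2. TTGCNNAA occurred in 10.6% of all promoters and in 14 of 48 members, and TATAAA in 14.2% and in 13 of 48. The AGGTCA form of the retinoic acid element, with the same spacing, and the HNF1 motif, GTTAAT and ATTAAC spaced by 1 base, were in no member, and the windows of Cyp27a1 and Cyp4f1 held none of the letters searched. A match describes the letters alone, and binding was not measured.

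Cyp27a1, the mitochondrial sterol 27-hydroxylase that opens the alternative route to bile acids, gave 10.69 and 10.37 in the control lines, 11.23 in Sar1A, 10.99 and 10.85 in Sar1B, and 9.77 and 9.79 in Sar1B:H79G. The mutant lines were lowest and the native Sar1 lines were highest. The log2 difference was -1.14 against Sar1B (standard error 0.12, a 2.20-fold lower signal, adjusted p = 0.0055), -1.45 against Sar1A (adjusted p = 0.011) and -0.75 against control (adjusted p = 0.0094). The values of 0.70 for Sar1A and 0.39 for Sar1B over control were not called (adjusted p = 0.075 and 0.093). Of the other 5 bile acid and sterol side chain enzymes, none was called within the array series, and their differences from Sar1B reached at most 0.10. Among them, Cyp7a1, the rate-limiting enzyme of classical bile acid synthesis, lay between 7.81 and 7.99 in all lines, below the array medians of 8.10 to 8.16.

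Cyp2c6v1, a constitutive P450 of rat liver, showed the largest difference of all members. It gave 11.09 and 10.95 in the control lines, 9.81 in Sar1A, 8.81 and 9.57 in Sar1B, and 7.75 and 7.53 in Sar1B:H79G. The groups formed a graded order in which control was highest, the native Sar1 lines were intermediate and the mutant lines were lowest, and the arrays of the mutant did not overlap with those of any other group. The log2 difference of Sar1B:H79G was -3.38 against control (standard error 0.24, a 10.4-fold lower signal, adjusted p = 0.0011), -1.56 against Sar1B (standard error 0.24, adjusted p = 0.015) and -2.17 against Sar1A (adjusted p = 0.021). Sar1B was lower than control by a log2 difference of -1.83 (adjusted p = 0.016), whereas that of Sar1A, -1.21, was not called (adjusted p = 0.093). Sar1A and Sar1B did not differ beyond the test (0.62, 95% interval -0.08 to 1.32). With either control line left out, the adjusted p against Sar1B was 0.056 and against Sar1A 0.084, and without line 2 of Sar1B:H79G that against Sar1A was 0.053. The Cyp2c subfamily holds near-identical genes, and whether this probe set also reads a neighbour was not tested. Of the other 6 Cyp2c probe sets, none was called within the array series.

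Cyp4f1, an omega-hydroxylase of fatty acids and leukotriene B4, followed the Sar1B lines. It gave 11.79 and 11.53 in the control lines, 11.28 in Sar1A, 12.11 and 12.57 in Sar1B, and 11.29 and 10.83 in Sar1B:H79G. Both Sar1B lines stood above all others, and the Sar1A line lay within the range of the mutant lines. The log2 difference of Sar1B:H79G was -1.28 against Sar1B (standard error 0.21, adjusted p = 0.019), and -0.22 against Sar1A (95% interval -0.84 to 0.40) and -0.60 against control (adjusted p = 0.087) were not called. The call against Sar1B was lost with either control line left out (adjusted p = 0.058) and without line 2 of Sar1B (-1.05, adjusted p = 0.066). The 0.68 of Sar1B over control was not called either (adjusted p = 0.095).

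Cyp3a23-3a1, the drug-inducible family 3 enzyme known for its response to pregnane X receptor ligands, gave 7.42 and 7.51 in the control lines, 7.01 in Sar1A, 7.53 and 7.44 in Sar1B, and 6.84 and 6.87 in Sar1B:H79G. All these values lie below the array median. The mutant lines were lowest, with the Sar1A line next. The log2 difference was -0.63 against Sar1B (standard error 0.07, adjusted p = 0.0061) and -0.61 against control (adjusted p = 0.0037), and against Sar1A it was -0.16 (95% interval -0.36 to 0.05), which was not called.

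**Figure D2:**
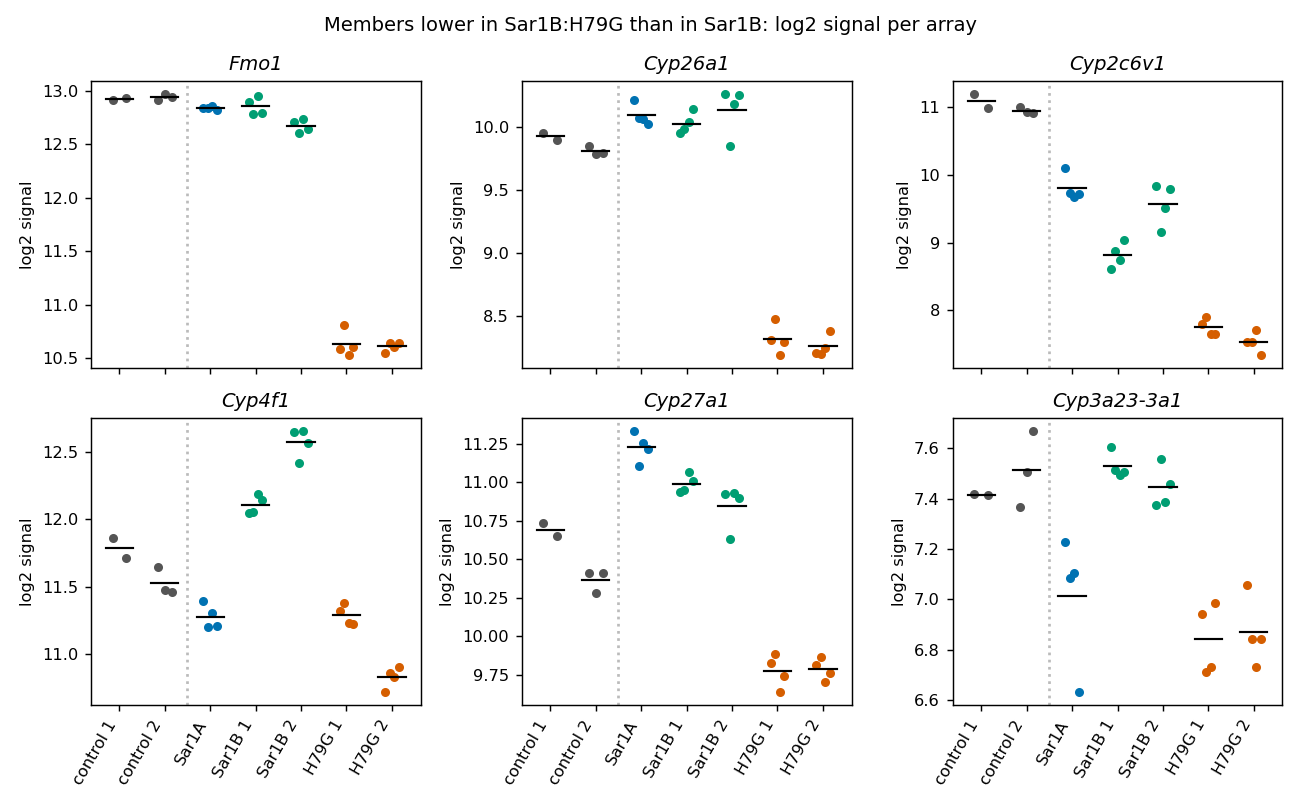
Log2 signal per array (y axis, points) in the 7 cell lines (x axis) for the 6 members called lower in Sar1B:H79G than in Sar1B; black bars are line means and the dotted line separates the control array series from the Sar1 array series. Fmo1, Cyp26a1 and Cyp27a1 are low in both Sar1B:H79G lines alone, Cyp2c6v1 descends from control to Sar1B:H79G, and Cyp4f1 is highest in the Sar1B lines.

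Against control, 17 of 71 members (15 genes) were called lower in Sar1B:H79G and none higher, where 22.3% of all probe sets were called, 13.2% higher and 9.17% lower. The members called came to 23.9%, close to the share of all probe sets called in either direction, and all of them were lower. The median log2 difference was -0.14 over the members and 0.03 over all probe sets. At an unadjusted p under 0.05 the count was 31 lower and 0 higher, with no share of all probe sets to set beside it. Without line 2 of control or of Sar1B:H79G fewer members were called, and fewer of all probe sets as well. With 1 line then left in the group, those calls are not counted here. The member median was -0.16 and -0.17 in these fits, beside 0.02 and 0.03 over all probe sets. Besides Fmo1, Cyp26a1, Cyp27a1, Cyp2c6v1 and Cyp3a23-3a1, the calls took in Fmo4 and Cyp4a8 (2 probe sets each), 1 probe set each of Fmo2 and Cyp4v3, and Cyp2b21, Cyp2c7, Cyp2c12, Cyp2d2, Cyp2d3 and Cyp3a18.

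These 12 further probe sets of 10 genes are those called against control and not against Sar1B, and their values are given as a description. They lay between -0.94 and -0.25 against control in Sar1B:H79G, with a median of -0.38. In Sar1A their median against control was -0.37 and in Sar1B -0.29, in comparisons that share the same control lines. The smallest value was that of Cyp4v3 in Sar1B, -0.05, where line 1 of Sar1B lay level with the control lines. Only 3 of the 12 had a mean above the median probe set.

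Fmo4 had the largest of these differences. Its probe set of higher signal gave 8.58 and 9.08 in the control lines, 8.16 in Sar1A, 8.15 and 8.23 in Sar1B, and 7.88 and 7.89 in Sar1B:H79G. The control lines were highest but differed by 0.50 between themselves. The log2 difference was -0.94 in Sar1B:H79G (standard error 0.16, adjusted p = 0.011), and -0.64 in Sar1B (adjusted p = 0.059) and -0.67 in Sar1A (adjusted p = 0.12) were not called. The other Fmo4 probe set was called in Sar1B:H79G with -0.25 (adjusted p = 0.045). Of the 3 Fmo2 probe sets, 1 was called in Sar1B:H79G, with -0.30, and the others read -0.01 and -0.10. Fmo5 was not called, and its mutant lines read 7.14 and 7.77, further apart than either lay from the mean of the controls.

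Cyp4a8, a fatty acid hydroxylase of family 4, was the one gene called lower in all 3 comparisons with control, by both of its probe sets. The probe set with the larger differences gave 8.50 and 8.46 in the control lines, 7.74 in Sar1A, 7.94 and 7.98 in Sar1B, and 7.92 and 7.92 in Sar1B:H79G. The Sar1 lines lay together, well under both control lines. The log2 differences were -0.74 in Sar1A (standard error 0.07, adjusted p = 0.033), -0.53 in Sar1B (adjusted p = 0.013) and -0.56 in Sar1B:H79G (adjusted p = 0.0033). The other probe set gave -0.56, -0.51 and -0.48.

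Sar1A against control called these 2 probe sets of Cyp4a8 and no other member, where 1.18% of all probe sets were called, 0.995% higher and 0.187% lower. Sar1B against control called 7 members lower and none higher, where 8.29% of all probe sets were called, 6.28% higher and 2.01% lower. The 7 were both Cyp4a8 probe sets, Cyp2c6v1, Cyp2d2 (-0.43, adjusted p = 0.019), Cyp2b21 (-0.46, adjusted p = 0.048), Fmo2 (-0.28, adjusted p = 0.048) and Cyp7b1 (-0.32, adjusted p = 0.048), the oxysterol hydroxylase of the alternative bile acid route. At an unadjusted p under 0.05, 20 members were lower and 2 higher in Sar1A, and 22 lower and 3 higher in Sar1B. These counts too have no share of all probe sets beside them. The medians against control were -0.11 in Sar1A and -0.09 in Sar1B, beside 0.02 and 0.03 over all probe sets. Leaving out any 1 line of control, Sar1B or Sar1B:H79G lost calls of members in both comparisons. Without a control line the calls over all probe sets fell as well. Such a fit keeps 1 line in the group concerned, so its calls are not counted here. Without line 1 or line 2 of control, the member median was -0.13 and -0.14 in Sar1A, beside 0.03 and 0.01 over all probe sets. In Sar1B it was -0.09 and -0.10, beside 0.04 and 0.02.

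All 5 Sar1 lines lay below both control lines in 33 of the 71 members (46.5%), and all 5 lay above them in 4 (5.63%). Over all probe sets these shares were 16.2% and 24.5%. Among the members whose mean signal lay at or under the median probe set, 24 of 46 (52.2%) were below and 1 above, beside 21.5% and 21.9% of all such probe sets. With arrays quantile-normalized or shifted to the same median, 35 members (49.3%) lay below, beside 20.6% and 19.7% of all probe sets. Leaving out a control line cannot lower the count and so does not check it. Without line 1 or line 2 of control it was 35 and 42, beside 25.4% and 22.3% of all probe sets. No test was made of this count, and the array series runs with it in every member. The order that sets the mutant apart was less frequent, with both Sar1B:H79G lines below the other 5 lines in 12 members (16.9%, beside 11.8% of all probe sets) and above them in 2, Cyp26b1 and Cyp46a1 (2.82%, beside 13.9%).

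**Figure D3:**
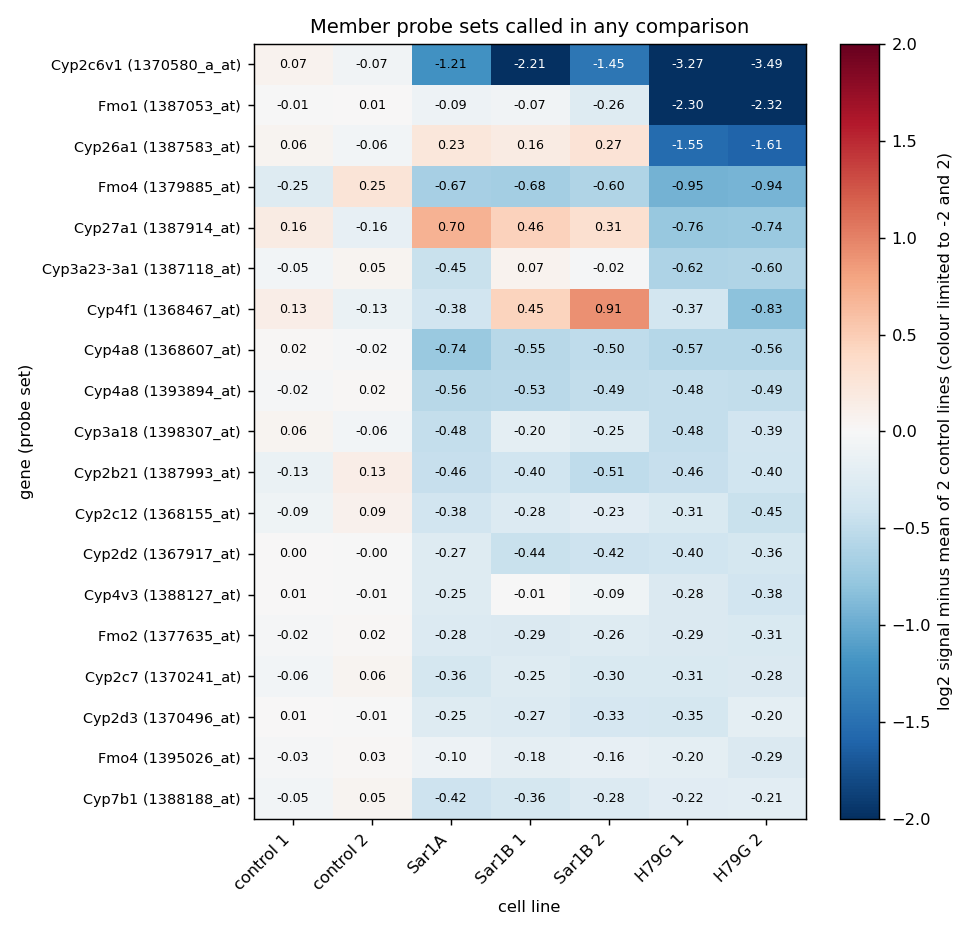
Difference of each line from the average of both control lines (log2 signal) for the 19 member probe sets called in at least 1 comparison (rows), by cell line (columns); blue is lower and red is higher than control, with the colour limited at 2. The top rows are deepest in the Sar1B:H79G columns, whereas the rows from Cyp4a8 downwards are pale blue in most Sar1 columns, with Cyp4v3 near 0 in the Sar1B columns; Cyp4f1 and Cyp27a1 are red in the Sar1B columns.

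**Figure D4:**
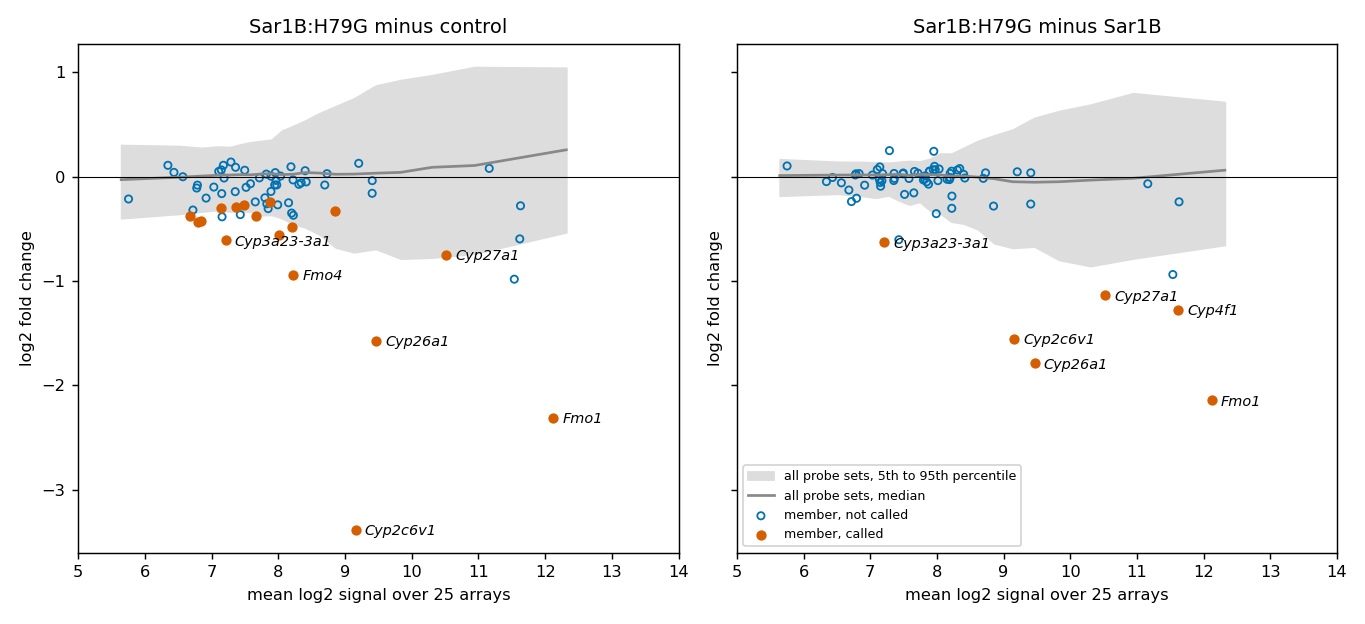
Log2 fold change of Sar1B:H79G over control (left) and over Sar1B (right) against the mean log2 signal over 25 arrays (x axis); points are the 71 members, filled where called, and the grey band runs from the 5th to the 95th percentile of all probe sets in 20 bins of signal. In the left panel most members of low signal lie below 0, and in the right panel most lie around 0, with the 6 called members below the band and Cyp1a1 (-0.94) and Cyp17a1 (-0.60) the furthest below it among those not called.

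Sar1A against Sar1B called none of the 71 members and 1 of 31042 probe sets (0.00322%), in a comparison with a single Sar1A line. At an unadjusted p under 0.05 there were 7 lower members and 0 higher. Without line 2 of Sar1B the member median was -0.03, beside -0.01 over all probe sets. The largest differences among the members named here were Cyp4f1 (-1.06, 95% interval -1.68 to -0.44, adjusted p = 0.45) and Cyp17a1 (-0.86, 95% interval -2.19 to 0.47). Cyp3a23-3a1 differed by -0.47 (95% interval -0.68 to -0.27, adjusted p = 0.28) and Cyp2c23 by -0.45 (95% interval -0.77 to -0.12, adjusted p = 0.57).

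Several members varied as much between lines of a group as between groups. Cyp17a1, the 17α-hydroxylase of steroid hormone synthesis, read 8.58 in line 1 of Sar1B and 7.03 in line 2, beside 7.61 and 7.53 in control, 6.95 in Sar1A, and 7.16 and 7.24 in Sar1B:H79G. Its difference of -1.55 between the Sar1B lines was the largest of any member, where 95% of all probe sets differed by less than 0.36 between those lines. Cyp1a1, which oxidises polycyclic aromatic hydrocarbons and is induced through the Ah receptor, read 11.87 and 11.98 in control, 11.54 in Sar1A, 11.49 and 12.27 in Sar1B, and 11.36 and 10.52 in Sar1B:H79G. Both mutant lines were below the rest, but with gaps of 0.78 and 0.84 between lines of a group, -0.94 against Sar1B (95% interval -1.75 to -0.13, adjusted p = 0.16) and -0.98 against control (adjusted p = 0.080) were not called. The steroid hormone enzymes had no call in any comparison.

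Further members above the array median on all arrays were called in no comparison. Cyp2c23, an arachidonic acid epoxygenase, read 11.96 and 11.67 in control, 11.33 in Sar1A, 11.77 and 11.78 in Sar1B, and 11.60 and 11.47 in Sar1B:H79G. Its Sar1A line was lowest, at -0.49 against control (95% interval -0.81 to -0.16, adjusted p = 0.12), and Sar1B:H79G lay at -0.24 against Sar1B (95% interval -0.51 to 0.02). Cyp20a1, an orphan P450, lay between 11.01 and 11.30 in the 7 lines (-0.07 in Sar1B:H79G against Sar1B, 95% interval -0.33 to 0.20). Cyp46a1, the cholesterol 24-hydroxylase, lay between 9.08 and 9.26 (0.05, 95% interval -0.11 to 0.20), and Cyp4a3 between 9.32 and 9.47 (0.04, 95% interval -0.14 to 0.21). The intervals against Sar1B of these 4 genes leave out differences of the size seen for Fmo1 and Cyp26a1.

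Electron donors and other partners of P450 were taken from a list of 10 genes, of which 9 were measured. In Sar1B:H79G, 1 of them was called higher and none lower against control, none higher and 2 lower against Sar1B, and none higher and 1 lower against Sar1A. The shares of all probe sets called higher and lower were 13.2% and 9.17% against control, 3.34% and 5.29% against Sar1B, and 1.33% and 1.63% against Sar1A. Cytochrome b5 (Cyb5a), which passes electrons to some P450 enzymes, was highest in Sar1A (13.50), then Sar1B (13.06 and 12.99), and read 12.44 and 12.34 in Sar1B:H79G. It was called higher in Sar1A and Sar1B than in control (0.93 and 0.45) and lower in Sar1B:H79G than in Sar1B and Sar1A (-0.63, adjusted p = 0.013, and -1.11, adjusted p = 0.011). Its outer mitochondrial form Cyb5b was also called, with 0.56 in Sar1B over control and -0.77 in Sar1B:H79G against Sar1B (adjusted p = 0.0044). Unlike Cyb5a, Cyb5b was higher in Sar1B (11.15 and 11.23) than in Sar1A (10.84). Its differences of 0.22 in Sar1A over control and -0.43 in Sar1B:H79G against Sar1A were not called (adjusted p = 0.22 and 0.069). The heme-binding protein Pgrmc2 was higher in Sar1B:H79G than in control (0.55). P450 reductase (Por), the electron donor of all P450 enzymes of the endoplasmic reticulum, was not called, with -0.50 against Sar1B (95% interval -0.82 to -0.19, adjusted p = 0.072).

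Of 10 genes of heme synthesis and breakdown, 9 were measured. Against Sar1B, where 5.29% of all probe sets were called lower and 3.34% higher, 3 were lower in Sar1B:H79G and none higher, namely Alad (-0.84, adjusted p = 0.0047), Cpox (-0.41, adjusted p = 0.018) and ferrochelatase, Fech (-0.96, adjusted p = 0.0039), which inserts the iron. Against Sar1A (1.63% of all probe sets lower and 1.33% higher), Alad (-0.58) and Fech (-0.62) were lower and none was higher. Against control (9.17% lower and 13.2% higher) Alad, Cpox and Fech were lower (-0.88, -0.31 and -0.32), and Alas1, the rate-limiting first enzyme, was higher by 1.11 (adjusted p = 0.0023). Alas1 was also higher in Sar1B than in control (0.72), as was Fech (0.65).

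Of 16 transcription regulators of Cyp genes, among them the repressors Ahrr and Nr0b2, 15 were measured. Against Sar1B (5.29% of all probe sets lower and 3.34% higher), 3 were lower in Sar1B:H79G, the hepatocyte nuclear receptor Hnf4a (-0.92, adjusted p = 0.0030), Nr5a2 (-0.86, adjusted p = 0.0082) and the glucocorticoid receptor Nr3c1 (-0.56, adjusted p = 0.025), and 1 was higher, Cebpb (0.53, adjusted p = 0.049). Against Sar1A (1.63% lower and 1.33% higher), Hnf4a alone was called (-0.63, adjusted p = 0.027). Against control (9.17% lower and 13.2% higher) 5 were lower, with Cebpa (-1.32, adjusted p = 0.015) and the bile acid receptor Nr1h4 (-0.57) in addition, and Cebpb (0.50) and Arnt (1.30) were higher. Arnt was higher in all Sar1 groups than in control, with 0.88 in Sar1A and 1.07 in Sar1B. The pregnane X receptor Nr1i2, the constitutive androstane receptor Nr1i3 and the Ah receptor Ahr were called in no comparison. Ahr read 8.40 and 8.26 in control, 9.89 in Sar1A, 9.31 and 10.47 in Sar1B, and 9.29 and 8.59 in Sar1B:H79G. It lay above both control lines in all 5 Sar1 lines, by 1.56 in Sar1B (95% interval 0.61 to 2.51, adjusted p = 0.062) and 1.56 in Sar1A (95% interval 0.40 to 2.72, adjusted p = 0.14). Over the regulators the median difference of Sar1B:H79G from Sar1B was -0.19, beside 0.01 over all probe sets. In 20 bins of signal, the median of all probe sets ran from -0.05 to 0.06. Hnf4a is also among the hepatocyte markers, whose mean was lowest in the Sar1B:H79G lines, and the part of these differences in the levels of the Cyp and Fmo genes was not tested.

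**Figure D5:**
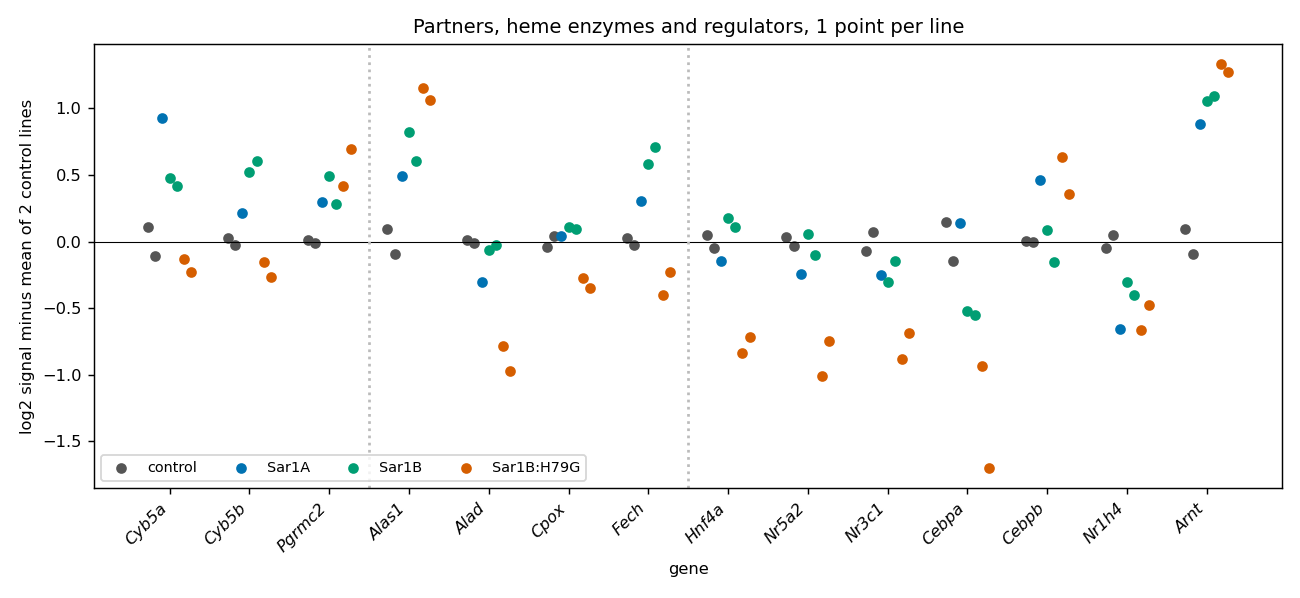
Difference of each line from the average of both control lines (y axis, log2 signal) for 14 called partners, heme enzymes and regulators (x axis); each point is 1 cell line and dotted lines separate the 3 lists. Alad, Fech, Hnf4a, Nr5a2 and Nr3c1 sit lowest in both Sar1B:H79G lines, and Arnt sits above 0 in all 5 Sar1 lines.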

How the data were processed

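RNA of 7 stable cell lines was hybridized to 25 arrays. In CARMAweb the authors applied loess normalization and MAS5, and they deposited log2 values for each probe set and array without detection calls. Their range gave the log base, no background level could be set, and the probe builds are not given in the sources used here. Array medians lay between 8.10 and 8.16, and no arrays were identical. Authors' comparisons were not used. The number of lines limits the precision.

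The 57 array controls were left out. Line means of 31042 probe sets were compared by limma 3.58.1 (R 4.3.3) using 4 group coefficients, 3 residual and 3.16 prior degrees of freedom. Sar1A has 1 line, whose spread was taken to equal that of the other groups. P-values were Benjamini-Hochberg adjusted over all probe sets and called under 0.05 in 6 comparisons. Because the lines are clones, p-values measure the spread between clones.

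All 71 member symbols matched the rat gene table by identifier, and 0 differed. Groups came from the sample titles. The members, the lists of partners, heme genes, regulators and markers, and the motifs were chosen with earlier results of these data known. Named were members called in any comparison, those with the 10 highest signals, the highest of each family, and called list genes with Por, the Ah, pregnane X and constitutive androstane receptors. Further members named were chosen after their values were seen. Alternatives were single arrays, the line as a random block (statmod 1.5.0), 2 other scalings, a filter on low signal, eBayes options, a replicate block, gene means, fits of only the groups compared, and each line left out.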

Additional observations from a re-analysis of the deposited data

Results flagged for a closer look

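In 124 groups of arrays of 31 member genes, 7 held an array that stood apart from the others by Dixon's test. Its chance rate of about 1 in 20 assumes arrays of 1 source. The control, Sar1B and Sar1B:H79G groups each pool 2 lines, so that this rate applies to Sar1A alone. Cyp27a1 had its lowest Sar1B array, of line 2, at 10.6304. Fmo1 had its highest Sar1B:H79G array, of line 1, at 10.8106, and Cyp46a1 its highest in the same line at 9.4467. In Sar1A, Cyp2c6v1 had its highest array at 10.1098, Cyp2b21 its lowest at 6.479 and Cyp4a8 its lowest at 7.888. In control, Cyp2c7 had its lowest array, of line 1, at 7.42. Arrays of a line are technical replicates.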

How the results depend on the processing

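No called member changed direction under any alternative: in 418 cases the call stayed and in 105 it was lost. Fmo1, Cyp26a1, Cyp27a1 and Cyp3a23-3a1 stayed called lower in Sar1B:H79G against Sar1B and against control under every alternative run. Member counts that moved by over 1.5 times from the main count over all 71 member probe sets were as follows. The share of all probe sets called changed with the setting too. With each array as a replicate the counts were 35, 30 and 33 for Sar1B:H79G, Sar1A and Sar1B against control, 18 and 10 for Sar1B:H79G against Sar1B and Sar1A, and 9 for Sar1A against Sar1B. In the same order, 52.3%, 36.2%, 42.2%, 31.8%, 23.2% and 10.3% of all probe sets were called. With the line as a random block they were 31, 15 and 19 against control, 14 for Sar1B:H79G against Sar1B and 3 for Sar1A against Sar1B. Of all probe sets, 38.0%, 19.3%, 26.4%, 22.2% and 3.84% were called there. With probe sets above the median alone, which leaves 25 members, they were 7, 1 and 2 against control, beside 31.0%, 2.18% and 10.6% of all such probe sets. The main fit called the same numbers of these 25 members, so that nothing moved among them. With trend and robust options Sar1B:H79G had 26 and Sar1A 5 against control, beside 26.026% and 3.347% of all probe sets. With gene means, which count genes, Sar1A had 1 and Sar1B 3 against control, beside 0.239% and 5.29% of all genes. The main fit called probe sets of 1 and 6 genes there, so that by genes Sar1A did not move. With only the groups compared, Sar1A had 7 and Sar1B 4 against control, and Sar1B:H79G against Sar1A had 0 (5 at an unadjusted p under 0.05), where 1 residual degree of freedom remained. Of all probe sets, 7.51%, 8.69% and 0% were called there. Leaving out 1 line also moved counts against control, but it left 1 line in a group, so those calls are not counted here. Across the lines left out, the member median against control ran from -0.17 to -0.12 in Sar1B:H79G. It ran from -0.14 to -0.11 in Sar1A and from -0.13 to -0.07 in Sar1B. Over all probe sets it lay between 0.01 and 0.04.

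The line numbers only mark lines: between groups, same-numbered lines deviated from their group means with correlations of 0.0071, 0.192 and 0.0752. With the line number as a replicate block the counts were 17, 0 and 4 against control, 7 and 3 for Sar1B:H79G against Sar1B and Sar1A, and 0 for Sar1A against Sar1B. In the same order, 22.6%, 0.00322%, 6.46%, 8.45%, 1.81% and 0.00322% of all probe sets were called.

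With the median of probe sets with 1 symbol as the reference, the share of members above it was 27.7% in control, 19.4% in Sar1A, 21.0% in Sar1B and 18.1% in Sar1B:H79G, and with 1 probe set per gene 41.8%, 33.6%, 36.9% and 32.0%, with control highest under both. The count of members with all Sar1 lines below control was added after seeing the data. The cause of these changes was not tested.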
